A study of Mus musculus with 15 samples.

Results

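The mouse genes described here encode 7 transcription factors: Vsx1, the homeobox factors Otx1 and Otx2, and the 4 basic helix-loop-helix leucine zipper factors of the MiT family, Mitf, Tfec, Tfeb and Tfe3. They were taken from the table of the series by gene symbol and make up 7 of its 23244 entries. The symbols were chosen with earlier results of these data known. All tissue came from EB5 Rx::GFP+/- mouse embryonic stem cells, in which GFP reports the eye field gene Rax, grown as SFEBq aggregates (serum-free floating culture of reaggregated cells). GFP+ epithelium was cut out at Day 10 and either collected (Day 10 Rx::GFP+) or cultured on with 1 of 2 stimulations and collected at Day 12 and Day 15. The +Wnt culture contained CHIR99201, which blocks the kinase GSK3, at 3 μM over an initial 24 h and 1 μM from then on, and its tissue is labelled retinal pigmented epithelium (RPE). The +Fgf culture contained 5 ng/ml bFgf with 10% FBS, and its tissue is labelled neural retina. Serum was listed for the +Fgf medium alone, so effects of bFgf and of serum cannot be told apart. No library was made from tissue cultured on without a stimulation. In comparisons between days, effects of a stimulation and of further time in culture thus cannot be told apart. Each of the 5 groups held 3 biological replicates of the same cell line, 15 libraries in all. Values are read counts normalized for library size (CPM), as deposited by the authors.

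Optic vesicle cells can become either RPE or neural retina, and the factors described here are known players in that choice. Otx1 and Otx2 bind homeodomain sites and, together with Mitf, switch on melanin genes in the RPE, while Otx2 also acts later in newborn photoreceptor and bipolar cells. Mitf and its relatives Tfec, Tfeb and Tfe3 can form heterodimers and bind E-box sequences. Tfeb and Tfe3 are best known as regulators of lysosome and autophagy genes, held in the cytoplasm by nutrient-sensing kinases. Vsx1 is known from bipolar cells of the retina.

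The libraries held between 12556998 and 16175450 reads on genes (median 15073047), and 1 read was worth 0.062 to 0.0764 CPM. The labelled tissues were compared with marker genes. The summed expression of 8 early neural retina markers was 1069 to 1115 CPM in Day 12 +Fgf and 1789 to 2033 CPM in Day 15 +Fgf, against 26.6 to 38.0 CPM in Day 15 +Wnt. Day 10 tissue held 679.7 to 703 CPM and Day 12 +Wnt tissue 82.68 to 95.35 CPM of these markers. The 10 RPE markers summed to 5919 to 7864 CPM in Day 15 +Wnt and 223.4 to 404.9 CPM in Day 15 +Fgf, but the visual cycle gene Rpe65 was at 0 in all 3 Day 15 +Wnt libraries and Best1 reached at most 0.281 CPM there. Pmel alone made up 4204, 3112 and 3741 CPM of the Day 15 +Wnt sum. The RPE markers already summed to 737.9 to 1065 CPM at Day 10, which overlapped the 1047 to 1437 CPM of Day 12 +Wnt. In Day 12 +Fgf they summed to 210.2 to 248.5 CPM. Markers of other cells were present too. The 9 choroid plexus markers summed to 1288 to 1794 CPM in Day 15 +Wnt and 72.4 to 219.3 CPM in Day 15 +Fgf, and Ttr, which RPE expresses as well, held most of the sum in Day 15 +Wnt (1231, 806.5 and 749.2 CPM). Ttr is counted in the sum of the RPE markers too. The 12 forebrain and midbrain markers summed to 329.8 to 359.4 CPM and 85.4 to 143.3 CPM in the same groups. The 10 neural crest and melanocyte markers summed to 125.0 to 152.1 CPM and 100.5 to 108.8 CPM, with the defining gene Sox10 at 0.186, 0 and 0.0702 CPM in Day 15 +Wnt and at 0.0737, 0 and 3.04 CPM in Day 15 +Fgf. The 9 matched macrophage and osteoclast markers, cells in which MiT factors also act, summed to 22.2 to 25.5 CPM in Day 15 +Wnt and to at most 4.75 CPM in any other library. Of that sum, Csf1r made up 19.4, 19.2 and 21.8 CPM, while Ptprc, Fcer1g and Tyrobp were at 0 in that group. The part of these cells in the results below was not tested. RNA quality moved with the groups as well, since the RNA integrity number (RIN) given by the study was lower for all 3 Day 15 +Fgf libraries than for every Day 12 +Fgf, Day 12 +Wnt and Day 15 +Wnt library. RIN was also lower for all 3 Day 10 libraries than for every Day 12 library, so it moved with both comparisons of Day 12 with Day 10.

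By the GENCODE annotation of GRCm38 (mm10), Otx1 lies at chr11:21994764-22002897 on the minus strand and Otx2 at chr14:48657677-48673819 on the minus strand. Mitf lies at chr6:97807052-98021349 on the plus strand, Tfec at chr6:16833373-16898441 on the minus strand, Tfeb at chr17:47737030-47792419 on the plus strand and Tfe3 at chrX:7762560-7775202 on the plus strand. Vsx1 lies at chr2:150680702-150689360 on the minus strand. Exons of Otx2 overlap the antisense gene Otx2os1 over 154 bases. The strand setting of the counting is not given in the sources used here, but the entry of Otx2os1 reached at most 2.54 CPM in any library. RefSeq promoters (GRCm38.p6, 250 bases before to 50 after each start) were matched for 6 of the 7 genes, 14 promoters in all. The word GGATTA, a core of the sites that Otx factors bind, was found on either strand in 2 of these 6 genes, Otx2 and Mitf (33.3% of genes), against 8.14% of all 27025 genes. By promoter it was found in 2 of the 14, against 7.06% of all 32851 promoters. The palindromic homeodomain word TAATTA was found in the same 2 genes, against 6.12% of all genes, and in 3 of the 14 promoters, against 5.29% of all promoters. Otx2 and Mitf each have several promoters, and a gene with more windows has more places in which a word can be found. Neither the M-box TCATGTG nor the E-box CACGTG was present in the 14 windows. The 3 promoters below are shown as windows of Otx2 and Mitf that hold these words, with GGATTA and TAATTA in capitals, 5′ to 3′ on the strand of the gene. A further Otx2 window, chr14:48667595-48667894, holds TAATTA starting 141 bases before its start site and is not printed. A match is a description of the letters and not a mapped site.

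Otx2 promoter, chr14:48665060-48665359, minus strand, with GGATTA starting 211 bases and TAATTA 234, 174 and 154 bases before the start site: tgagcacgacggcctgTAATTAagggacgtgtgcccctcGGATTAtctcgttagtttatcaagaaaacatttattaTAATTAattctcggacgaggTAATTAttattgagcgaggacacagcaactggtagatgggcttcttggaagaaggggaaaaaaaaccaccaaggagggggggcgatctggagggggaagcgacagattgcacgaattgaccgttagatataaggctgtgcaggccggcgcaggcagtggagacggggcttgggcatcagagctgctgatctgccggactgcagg
Mitf promoter, chr6:97929567-97929866, plus strand, with GGATTA starting 119 bases before the start site: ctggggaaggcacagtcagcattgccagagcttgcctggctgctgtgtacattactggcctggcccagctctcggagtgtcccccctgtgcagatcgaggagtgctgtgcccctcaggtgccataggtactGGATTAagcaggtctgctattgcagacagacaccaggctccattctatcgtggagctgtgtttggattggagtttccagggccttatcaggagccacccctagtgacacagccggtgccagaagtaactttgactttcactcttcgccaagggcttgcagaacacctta
Mitf promoter, chr6:97991533-97991832, plus strand, with TAATTA starting 45 bases before the start site: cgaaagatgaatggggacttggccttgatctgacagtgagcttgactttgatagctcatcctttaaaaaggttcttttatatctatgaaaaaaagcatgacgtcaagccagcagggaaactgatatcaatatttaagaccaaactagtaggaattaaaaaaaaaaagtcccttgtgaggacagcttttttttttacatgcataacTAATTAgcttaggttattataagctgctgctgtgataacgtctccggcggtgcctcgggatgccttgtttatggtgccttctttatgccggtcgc

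Otx1, Otx2, Mitf and Tfec fell together in the first 2 days of +Fgf stimulation, each to less than its lowest Day 10 value in every library. Over the same 2 days of +Wnt stimulation none of them passed as lower, and Otx2 rose slightly. After Day 12 the 4 genes parted. In +Fgf tissue Mitf, Otx1 and Tfec fell further while Otx2 rose slightly. In +Wnt tissue Mitf rose, Otx1 and Tfec fell, and the change of Otx2 did not pass. Tfeb and Tfe3 stayed within narrow ranges in all 5 groups, and Vsx1 was near 0 outside Day 15 +Fgf.

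**Figure D1:**
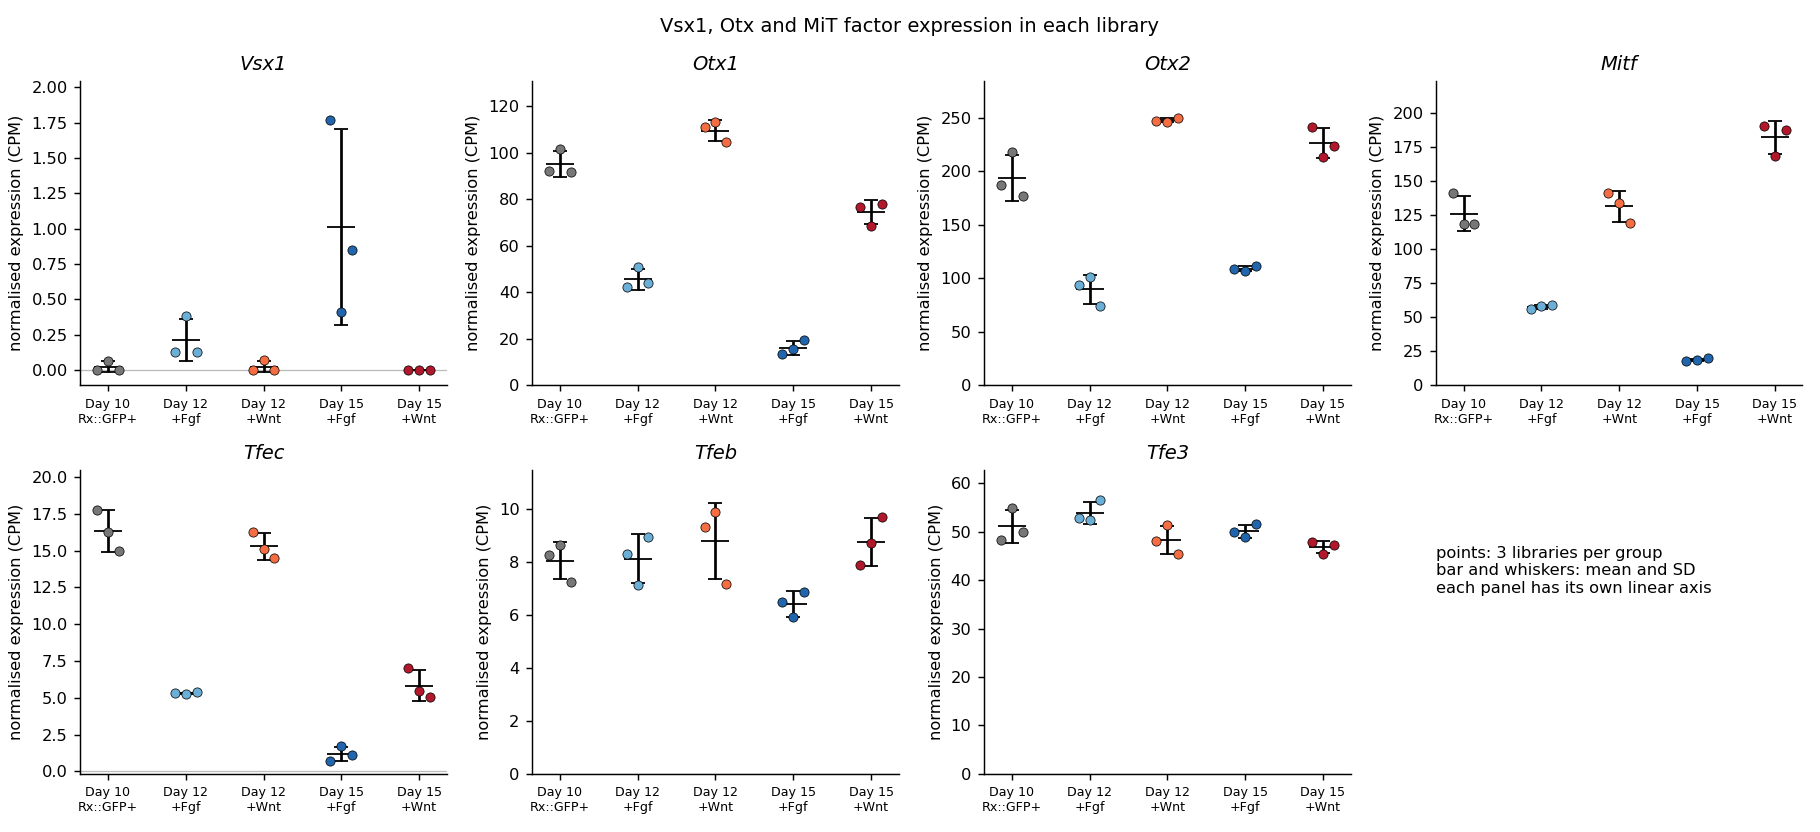
Normalized expression (CPM, linear axis of its own in each panel) of the 7 genes in the 15 libraries, grouped by day and stimulation. Points are libraries, and bars with whiskers are the mean and SD of 3 replicates. Mitf sits between 17.8 and 19.6 CPM in Day 15 +Fgf and between 168.6 and 190.8 CPM in Day 15 +Wnt, while Tfe3 sits between 45.5 and 56.5 CPM in all libraries.

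Otx2 is required for RPE specification and later for photoreceptor fate. At Day 10 it stood at 187.7, 218.3 and 176.9 CPM, with 93.7, 100.7 and 74.0 CPM in Day 12 +Fgf and 247.6, 246.3 and 250 CPM in Day 12 +Wnt. At Day 15 it was 108.6, 106.8 and 111.4 CPM in +Fgf and 241.7, 213.4 and 224.3 CPM in +Wnt. All 6 +Fgf libraries lay below all Day 10 libraries and all 6 +Wnt libraries. On the log2(CPM + 0.3) scale used throughout, the fold change of Day 12 +Fgf to Day 10 was -1.12 (SE 0.09, limma with Benjamini-Hochberg adjusted p = 3.98e-08, n = 3 per group), and that of Day 12 +Wnt to Day 10 was 0.36 (SE 0.09, limma adjusted p = 0.0027). In bulk tissue, fewer expressing cells and less RNA per cell cannot be told apart, for this and every later value. The increase in +Wnt lost its call when RIN entered as covariate, where it was 0.28 (limma adjusted p = 0.0596, range over 26 alternatives 0.000197 to 0.0596).

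Between Day 12 and Day 15, Otx2 moved the other way from Mitf, Otx1 and Tfec in +Fgf tissue. Its log2 fold change was 0.30 (SE 0.09, limma adjusted p = 0.0103), and the replicates of Day 15 lay above those of Day 12. This small increase depended on Day 12 +Fgf replicate 3, the lowest library at 74.0 CPM. Without it the value was 0.16 (limma adjusted p = 0.0662), and with RIN as a covariate it was 0.46 (limma adjusted p = 0.0742), the largest p over 26 alternatives (smallest 0.00181). In +Wnt tissue the Day 15 libraries lay below all Day 12 libraries, but the change of -0.13 (SE 0.09, limma adjusted p = 0.203) did not pass. It passed when only the 6 samples compared were fitted (limma adjusted p = 0.0374), and was 0.04 after quantile normalization. Between the stimulations, Otx2 was lower in +Fgf, with log2 fold changes of -1.48 at Day 12 and -1.05 at Day 15 (limma adjusted p = 7.79e-10 and 2.24e-08).

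Otx1, the paralog with a wider role in the anterior brain and sense organs, started at 92.3, 101.8 and 91.9 CPM at Day 10. It was 42.1, 50.7 and 44.1 CPM in Day 12 +Fgf and 13.4, 15.3 and 19.4 CPM in Day 15 +Fgf, so the 3 stages did not overlap. The log2 fold changes of these 2 steps were -1.06 (SE 0.10, limma adjusted p = 3.2e-07) and -1.50 (SE 0.10, limma adjusted p = 4.35e-09). In +Wnt tissue Otx1 was 110.9, 113.2 and 104.8 CPM at Day 12 and 76.7, 68.5 and 78.0 CPM at Day 15. The Day 12 +Wnt libraries all lay above those of Day 10, but the log2 fold change of 0.20 did not pass (SE 0.10, limma adjusted p = 0.101, range over 26 alternatives 0.0117 to 0.563). It passed without Day 15 +Fgf replicate 3, a library outside the comparison that enters the shared spread (limma adjusted p = 0.0321). From Day 12 to Day 15 in +Wnt it fell by 0.56 on the log2 scale (SE 0.10, limma adjusted p = 0.000136). Otx1 was 2.40-fold lower in +Fgf than in +Wnt at Day 12 and 4.61-fold lower at Day 15 (log2 fold changes -1.26 and -2.21, limma adjusted p = 2.79e-08 and 1.09e-11).

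Mitf, the basic helix-loop-helix factor that directs pigment cell genes, was 141.2, 118.9 and 118.4 CPM at Day 10. It was 56.2, 58.1 and 58.9 CPM in Day 12 +Fgf, less than its lowest Day 10 library, and 141.3, 134.0 and 119.2 CPM in Day 12 +Wnt, which overlapped Day 10. At Day 12 the log2 fold changes to Day 10 were -1.12 in +Fgf (SE 0.07, limma adjusted p = 4.89e-09) and 0.06 in +Wnt (SE 0.07, limma adjusted p = 0.50). At Day 15 the libraries held 17.8, 18.3 and 19.6 CPM in +Fgf and 190.8, 168.6 and 188.1 CPM in +Wnt. All 3 steps that passed separated the replicates fully, with a further log2 fold change of -1.62 in +Fgf (SE 0.07, limma adjusted p = 5.11e-11) and a gain of 0.47 in +Wnt (SE 0.07, limma adjusted p = 2.82e-05). Mitf was 9.69-fold lower in Day 15 +Fgf than in Day 15 +Wnt (log2 fold change -3.28, 95% interval -3.43 to -3.12, limma adjusted p = 2.82e-15). The values cover all start sites of the gene together, so transcripts from the separate promoters of Mitf were not resolved.

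Tfec, a MiT factor whose expression is more restricted than that of its relatives, was 17.8, 16.3 and 15.0 CPM at Day 10 and 16.3, 15.1 and 14.5 CPM in Day 12 +Wnt, an overlap of ranges. It was 5.32, 5.29 and 5.37 CPM in Day 12 +Fgf and 0.737, 1.72 and 1.13 CPM in Day 15 +Fgf, the latter from 10, 25 and 16 reads. The log2 fold changes of the 2 steps in +Fgf were -1.56 (SE 0.19, limma adjusted p = 3.14e-06) and -1.96 (SE 0.19, limma adjusted p = 1.75e-07). In Day 15 +Wnt, Tfec was 7.01, 5.44 and 5.05 CPM, below every Day 12 +Wnt library. It fell by 1.36 on the log2 scale (SE 0.19, limma adjusted p = 6.49e-06) over the days in which Mitf rose. The 9 macrophage and osteoclast markers summed to 3.07 to 4.75 CPM at Day 10, 2.12 to 4.21 CPM in Day 12 +Wnt and 22.2 to 25.5 CPM in Day 15 +Wnt, and their part in the Tfec values was not tested.

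The MiT factors best known from lysosome control changed little. Tfe3 had its lowest group mean in Day 15 +Wnt (46.9 ± 1.22 CPM, SD, n = 3) and its highest in Day 12 +Fgf (53.9 ± 2.28 CPM), and all neighbouring groups in this order overlapped. Its single call, a log2 fold change of 0.16 between +Fgf and +Wnt at Day 12 (SE 0.06, limma adjusted p = 0.037), was not held without Day 12 +Fgf replicate 1 (0.17, limma adjusted p = 0.0569) or 3 (0.12, limma adjusted p = 0.144), or without Day 12 +Wnt replicate 1 (0.16, limma adjusted p = 0.0751) or 3 (0.12, limma adjusted p = 0.164), the highest of 26 alternatives (lowest 0.0189). It was also lost after quantile normalization (0.13, limma adjusted p = 0.0679), with only the 6 samples fitted (0.16, limma adjusted p = 0.0529) and with edgeR (0.14, edgeR adjusted p = 0.061). Tfeb lay between 5.91 and 9.88 CPM in all libraries, with the 3 Day 15 +Fgf libraries (6.49, 5.91 and 6.86 CPM) below those of the other groups. Against Day 15 +Wnt its log2 fold change was -0.43 (SE 0.14, limma adjusted p = 0.0105), which did not pass without Day 15 +Wnt replicate 3 (-0.36, limma adjusted p = 0.0521), and was -0.17 after quantile normalization (limma adjusted p = 0.288, range over 25 alternatives 0.00556 to 0.288). With RIN as a covariate the value was -0.39 and did not pass either (limma adjusted p = 0.244). From Day 12 to Day 15 in +Fgf it was -0.32 (limma adjusted p = 0.0533, range 0.00401 to 0.515), and it passed under 4 alternatives, namely after quantile normalization (-0.53, limma adjusted p = 0.00401), with moderation without a trend (-0.32, limma adjusted p = 0.0427), and without Day 12 +Fgf replicate 2 (-0.41, limma adjusted p = 0.0302) or Day 12 +Wnt replicate 3 (-0.32, limma adjusted p = 0.0347).

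Vsx1 had too few reads for the filter of at least 1 CPM in 3 libraries, so limma was fitted to 6 of the 7 genes. The gene had 54 reads over the 15 libraries and 7 libraries had none. The Day 15 +Fgf libraries held 24, 6 and 12 reads (1.77, 0.412 and 0.848 CPM), the Day 12 +Fgf libraries 2, 6 and 2 reads, and the Day 10 and Day 12 +Wnt groups 1 read each in 1 library. All 3 Day 15 +Wnt libraries were at 0, which allows up to 3 reads per library, or 0.207 CPM on average, for counting error only. The mean of Day 15 +Fgf (1.01 CPM, SD 0.693) was 4.89-fold above that floor, and 3.05-fold above it without Day 15 +Fgf replicate 1, the library with the most reads. These folds take the +Fgf mean as exact, so they are not a lower bound on the difference. The exact two-sided permutation test gave p = 0.10, the smallest p that 3 against 3 libraries allow. Without the filter, limma gave an adjusted p of 2.27e-05 for Day 15 +Fgf against +Wnt and 0.00203 for Day 15 +Fgf against Day 12 +Fgf.

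A large share of all 13845 genes tested was called in every comparison, and the counts of these factors are given beside it. Between Day 12 +Fgf and Day 10, 4 of the 6 genes tested were called, all lower, where 55.7% of all genes were called (27.9% higher and 27.8% lower). Between Day 12 +Wnt and Day 10, only Otx2 was called, as higher, where 60.2% of all genes were (30.6% higher and 29.6% lower). From Day 12 to Day 15 in +Fgf, 3 were lower and Otx2 higher, against 57.1% of all genes called (27.2% higher and 29.9% lower). Over the same days in +Wnt, Mitf was higher and Otx1 and Tfec lower, against 68.0% (32.5% higher and 35.5% lower). Between +Fgf and +Wnt at Day 12, 4 were lower in +Fgf and Tfe3 higher, against 51.5% (26.3% higher and 25.2% lower). At Day 15, 5 were lower in +Fgf and none was higher, against 68.7% (38.0% higher and 30.6% lower). The replicates of both groups did not overlap for 4, 2, 6, 4, 5 and 6 of the 6 genes in these comparisons, taken in the same order, and for 61.0%, 64.3%, 63.7%, 72.8%, 60.4% and 73.1% of all genes. The median log2 fold change of the 6 genes between +Fgf and +Wnt was -1.22 at Day 12 and -1.56 at Day 15, where the median of all genes tested was -0.0021 and 0.05. The comparisons share libraries, so their counts are not independent of each other.

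**Figure D2:**
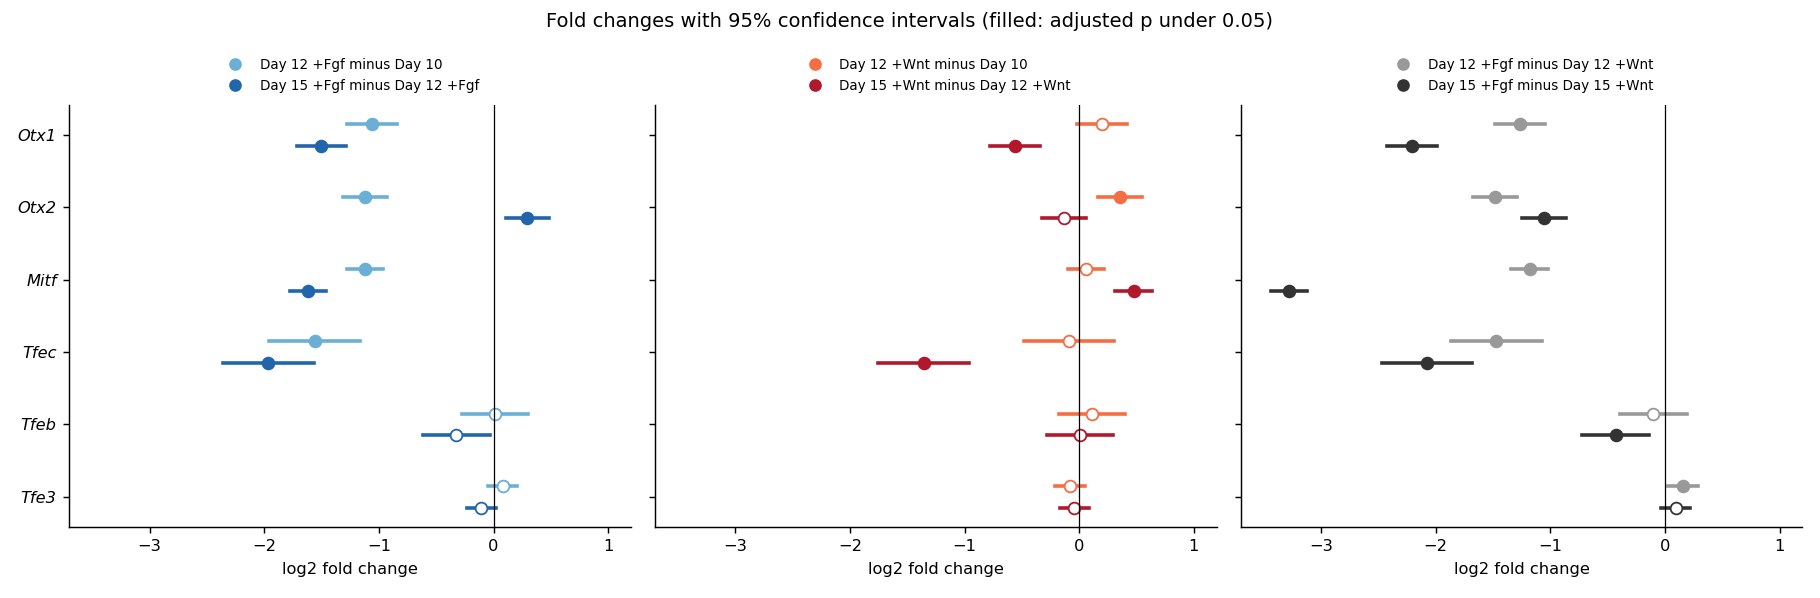
Log2 fold changes (points, on the log2(CPM + 0.3) scale) with 95% confidence intervals (lines) for the 6 genes tested, for the steps of +Fgf culture (left), the steps of +Wnt culture (middle) and +Fgf against +Wnt (right). Filled points passed an adjusted p of 0.05 in limma. In the right panel, Mitf goes from -1.18 at Day 12 to -3.28 at Day 15 and Otx2 from -1.48 to -1.05.

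The change from Day 12 to Day 15 was compared between the stimulations as an interaction in the same fit, which called 3 of the 6 genes tested, 1 with a positive and 2 with a negative sign, against 47.9% of all genes (27.0% positive and 20.9% negative). The difference (+Fgf minus +Wnt) was -2.10 for Mitf (SE 0.11, limma adjusted p = 3.88e-10), -0.94 for Otx1 (SE 0.15, limma adjusted p = 5.7e-05) and 0.43 for Otx2 (SE 0.13, limma adjusted p = 0.0112). For Otx2 it thus had the opposite sign. For Tfec, which fell in both, the difference was -0.61 with a 95% interval of -1.17 to -0.05 (limma adjusted p = 0.0683, range over 25 alternatives 0.00516 to 0.395). Without Day 15 +Fgf replicate 2, its highest library of that group, it was -0.85 (limma adjusted p = 0.00516).

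Within each library, the balance of the factors was read as a ratio, which does not depend on the scaling between libraries. The log2 ratio of Mitf to Otx2 was -0.41, -0.87 and -0.58 at Day 10 and -0.74, -0.79 and -0.33 in Day 12 +Fgf. It was -2.59, -2.52 and -2.49 in Day 15 +Fgf and -0.34, -0.34 and -0.25 in Day 15 +Wnt, a difference of -2.22. The ratio in Day 15 +Fgf lay far below that of every other library. In Day 12 +Wnt it was -0.81, -0.88 and -1.07, so that +Fgf was 0.30 higher at Day 12, and 0.15 higher without Day 12 +Fgf replicate 3. The log2 ratio of Otx2 to Otx1 was 0.96 ± 0.20 (SD, n = 3) in Day 12 +Fgf and 2.76 ± 0.24 in Day 15 +Fgf, against 1.18 ± 0.07 and 1.60 ± 0.07 in +Wnt. All of these ratios separated +Fgf from +Wnt at both days apart from Otx2 to Otx1 at Day 12 (exact permutation p = 0.20). For the others the exact permutation p was 0.10, the smallest possible with 3 against 3 libraries.

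Levels of different genes were compared per kilobase of exon. The summed expression of the 4 MiT genes was 30.2 ± 2.17 CPM per kb (SD, n = 3) at Day 10, 17.5 ± 0.541 in Day 12 +Fgf, 30.7 ± 2.41 in Day 12 +Wnt, 9.75 ± 0.340 in Day 15 +Fgf and 37.1 ± 2.16 in Day 15 +Wnt. Mitf held 67.3% ± 2.42 of this sum at Day 10, 53.2% ± 1.08 in Day 12 +Fgf and 30.7% ± 0.545 in Day 15 +Fgf. In Day 15 +Fgf the first place had passed to Tfe3, with 55.5% ± 0.877 of the sum, and Tfeb held 11.6% ± 0.634. In Day 15 +Wnt Mitf held 79.4% ± 0.688 and Tfe3 13.7% ± 0.456. The expression of Tfe3 per kb moved little, from 5.06 ± 0.132 in Day 15 +Wnt to 5.82 ± 0.246 in Day 12 +Fgf, so the shift in shares came with the fall of Mitf and Tfec. Otx2 held between 71.4% and 79.6% of the Otx sum per kb in 4 groups, and 89.7% ± 1.60 in Day 15 +Fgf. The level of these shares depends on the transcript length used, since with the longest transcript Mitf held 25.7% in Day 15 +Fgf and 74.4% in Day 15 +Wnt, while the order of the groups was kept.

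**Figure D3:**
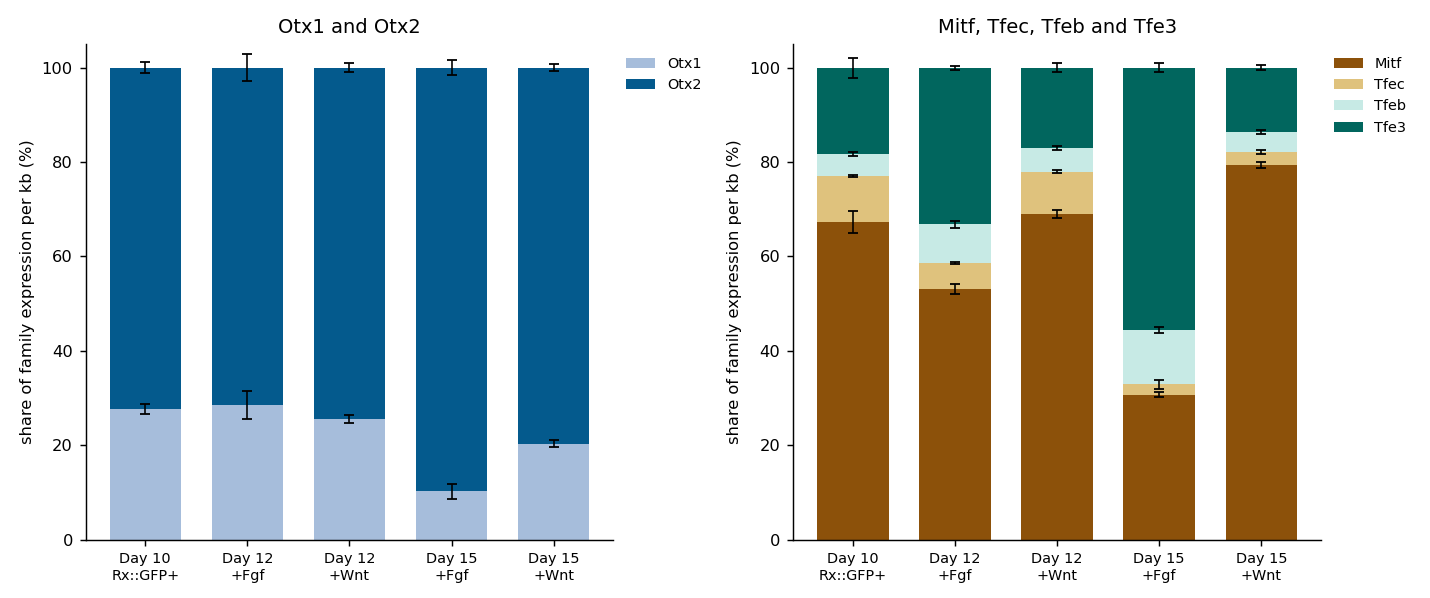
Share (%) of each gene in the summed expression per kilobase of the Otx genes (left) and the MiT genes (right), as stacked bars of group means with the SD of 3 replicates. Tfe3 forms the largest part of the MiT bar in Day 15 +Fgf (55.5%), where Mitf forms 30.7%, and Mitf the largest in the 4 other groups.

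Genes of pigment cells, among them known targets of Mitf and Otx factors, were followed with a list of 20, here called pigment targets, 19 of which were tested. Whether these factors regulate each of them was not tested. At Day 12, 15 were lower in +Fgf than in +Wnt and none was higher, where 25.2% of all genes tested were lower. At Day 15, 18 were lower (30.6% of all genes) and none was higher, with a median log2 fold change of -4.18. In +Wnt tissue 16 of them rose between Day 12 and Day 15 and none fell (median 1.99), where 32.5% of all genes rose. In +Fgf tissue 5 rose and 5 fell (median -0.05), where 27.2% of all genes rose and 29.9% fell. The largest difference at Day 15 was in Gpr143, a receptor of melanosome biogenesis, at 0, 0.412 and 0.283 CPM in +Fgf and 27.7, 25.4 and 28.6 CPM in +Wnt (log2 fold change -5.79, SE 0.27, limma adjusted p = 9.68e-12). Next was Slc24a5, a melanosomal ion exchanger, at 1.84, 4.12 and 3.89 CPM against 174.5, 137.2 and 159.4 CPM (log2 fold change -5.52, limma adjusted p = 1.73e-11).

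Within a tissue, the pigment genes and the factors did not all move together. In Day 15 +Wnt, Tyr, the key enzyme of melanin synthesis, was 667.1, 542.4 and 614.1 CPM against 163.5, 145.1 and 127.2 CPM at Day 12, a rise of 2.06 on the log2 scale (limma adjusted p = 3.49e-08) over the days in which the log2 fold change of Mitf was 0.47, Otx2 did not pass and Tfec fell. In +Fgf, Tyr went from 13.2, 20.3 and 19.5 CPM at Day 12 to 23.3, 28.7 and 30.5 CPM (log2 fold change 0.65, limma adjusted p = 0.00584). Tyrp1, which acts downstream in the same pathway, went from 13.4, 15.2 and 16.9 CPM to 32.9, 32.8 and 35.6 CPM (log2 fold change 1.15, limma adjusted p = 3.04e-06). Tyr and Tyrp1 thus rose while Mitf fell by 1.62 on the log2 scale. Trpm1, a cation channel of melanocytes and ON bipolar cells, instead fell with Mitf in +Fgf, from 278.1, 273.9 and 243.0 CPM to 57.7, 80.6 and 73.1 CPM (log2 fold change -1.92, limma adjusted p = 8.84e-10). These genes were chosen with their values known.

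**Figure D4:**
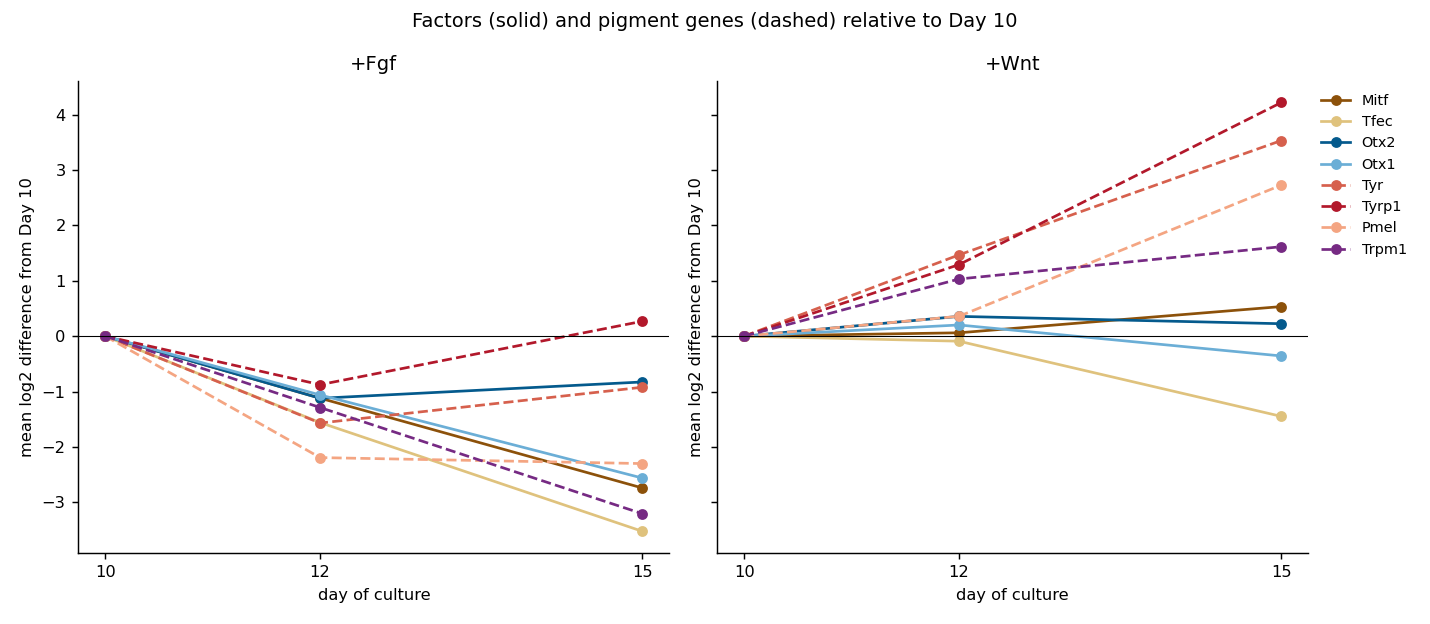
Mean log2 difference from Day 10 (vertical axis) by day of culture (horizontal axis) for Mitf, Tfec, Otx2 and Otx1 (solid) and for the pigment genes Tyr, Tyrp1, Pmel and Trpm1 (dashed), in +Fgf (left) and +Wnt (right), 3 libraries per group. At Day 15 in +Wnt, Tyrp1 stands at 4.22 and Mitf at 0.53 while Tfec stands at -1.45, and in +Fgf Mitf stands at -2.74 and Otx2 at -0.83.

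Of the 20 pigment targets, 15 were matched to RefSeq promoters. The M-box TCATGTG, an E-box with a flanking T to which Mitf binds, was found on either strand in 5 of them (33.3%), Dct, Slc24a5, Trpm1, Tyr and Tyrp1, against 4.31% of all genes. GGATTA was found in 4 (26.7%), Best1, Dct, Trpm1 and Tyrp1, against 8.14% of all genes. The list was drawn up with known targets among its genes, so these shares describe it and are not a test. The promoters of 4 of these genes are shown because they are textbook Mitf targets and differ in the words they hold, with M-box and GGATTA in capitals, 5′ to 3′ on the strand of the gene (CACATGA and TAATCC are the same words on the other strand).

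Tyr promoter, chr7:87493463-87493762, minus strand, M-box starting 22 bases before the start site: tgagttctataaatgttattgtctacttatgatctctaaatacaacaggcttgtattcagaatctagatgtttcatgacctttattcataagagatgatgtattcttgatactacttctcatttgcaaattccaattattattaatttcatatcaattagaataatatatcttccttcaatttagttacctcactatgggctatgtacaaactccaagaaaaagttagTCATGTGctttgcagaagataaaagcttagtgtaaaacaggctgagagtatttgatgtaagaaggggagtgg
Tyrp1 promoter, chr4:80833963-80834262, plus strand, M-box starting 47 bases before and GGATTA 5 bases after the start site: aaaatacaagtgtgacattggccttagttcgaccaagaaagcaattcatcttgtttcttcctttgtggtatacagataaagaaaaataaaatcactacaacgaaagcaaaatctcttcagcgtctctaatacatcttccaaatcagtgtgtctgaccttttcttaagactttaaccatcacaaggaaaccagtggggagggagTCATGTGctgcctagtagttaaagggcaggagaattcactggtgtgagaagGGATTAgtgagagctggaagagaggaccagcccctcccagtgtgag
Dct promoter, chr14:118052197-118052496, minus strand, M-boxes starting 232 and 151 bases and GGATTA 119 bases before the start site: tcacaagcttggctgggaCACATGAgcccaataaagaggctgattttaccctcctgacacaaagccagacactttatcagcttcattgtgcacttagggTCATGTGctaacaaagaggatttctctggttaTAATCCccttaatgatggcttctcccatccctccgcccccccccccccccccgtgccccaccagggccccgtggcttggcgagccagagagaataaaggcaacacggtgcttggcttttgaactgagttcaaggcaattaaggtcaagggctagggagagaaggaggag
Trpm1 promoter, chr7:64153585-64153884, plus strand, M-box starting 142 bases and GGATTA 34 bases before the start site: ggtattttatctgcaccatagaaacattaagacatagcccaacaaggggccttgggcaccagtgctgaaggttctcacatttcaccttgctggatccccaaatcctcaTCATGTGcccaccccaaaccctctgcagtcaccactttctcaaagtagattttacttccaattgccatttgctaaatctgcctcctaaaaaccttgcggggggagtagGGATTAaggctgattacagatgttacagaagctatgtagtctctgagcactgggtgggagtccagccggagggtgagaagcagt

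The lysosome and autophagy targets, known mostly for their control by Tfeb and Tfe3, differed between the tissues, while Tfeb and Tfe3 themselves changed little. Of 32 genes tested, 24 were lower and 3 higher in +Fgf than in +Wnt at Day 12 (median log2 fold change -0.45), and 25 were lower and 3 higher at Day 15 (median -0.56). The shares over all genes tested were 25.2% lower and 26.3% higher at Day 12, and 30.6% lower and 38.0% higher at Day 15. From Day 10 to Day 12, 22 were higher and 1 lower in +Wnt, where 30.6% of all genes were higher and 29.6% lower. In +Fgf 6 were higher and 10 lower over these days, where 27.9% of all genes were higher and 27.8% lower. Ppargc1a, a coactivator of mitochondrial genes, was 2.88, 4.40 and 5.72 CPM in Day 15 +Fgf, below the 19.4, 18.4 and 19.1 CPM of Day 15 +Wnt (log2 fold change -2.10, SE 0.18, limma adjusted p = 2.82e-08). Wipi1, an autophagy gene, went in the opposite direction, at 28.1, 27.7 and 29.3 CPM in Day 15 +Fgf and 17.5, 15.0 and 14.4 CPM in Day 15 +Wnt (log2 fold change 0.85, limma adjusted p = 2.94e-07), as did the protease gene Ctsd, at 970.0, 884.2 and 1230 CPM in Day 12 +Fgf and 367.5, 383.0 and 358.5 CPM in Day 12 +Wnt (log2 fold change 1.46, limma adjusted p = 1.12e-09). The E-box CACGTG was present in 14 of 26 genes matched to promoters (53.8%), against 8.09% of all genes and 4 of the 15 pigment targets (26.7%). This list too was drawn up from known targets, so its share is a description and not a test. The promoter of Mcoln1, a lysosomal calcium channel gene, is shown as an example with its 2 CACGTG words in capitals.

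Mcoln1 promoter, chr8:3500269-3500568, plus strand, CACGTG starting 71 and 45 bases before the start site: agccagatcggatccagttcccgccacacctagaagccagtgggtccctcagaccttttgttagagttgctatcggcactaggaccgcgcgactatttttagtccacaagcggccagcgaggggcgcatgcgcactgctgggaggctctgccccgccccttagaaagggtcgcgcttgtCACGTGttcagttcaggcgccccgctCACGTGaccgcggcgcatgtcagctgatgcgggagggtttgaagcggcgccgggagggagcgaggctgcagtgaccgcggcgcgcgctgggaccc

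A list of 16 regulators that tie MiT factors to nutrient supply held 11 genes that were lower and none higher in +Fgf at Day 12, with 5 not called, and 11 lower, 1 higher and 4 not called at Day 15 (medians -0.47 and -0.31). Of all genes tested, 51.5% were called at Day 12 (25.2% lower) and 68.7% at Day 15 (30.6% lower). Rragd, a Rag GTPase that brings MiT factors to the lysosome, was 70.0, 80.8 and 80.0 CPM in Day 15 +Fgf and 212.5, 206.4 and 206.2 CPM in Day 15 +Wnt (log2 fold change -1.44, SE 0.06, limma adjusted p = 1.18e-12). Flcn, the folliculin gene of the same pathway, was 40.0, 41.6 and 38.2 CPM against 102.2, 86.6 and 92.2 CPM (log2 fold change -1.22, limma adjusted p = 2.22e-10). Higher in +Fgf was Lamtor2, a subunit of the lysosomal anchor of the Rag GTPases, at 47.9, 46.7 and 46.5 CPM against 41.3, 40.4 and 43.2 CPM (log2 fold change 0.17, limma adjusted p = 0.0134).

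Photoreceptor and bipolar genes, among which Otx2 and Vsx1 act later in the retina, followed another course. Of 20 genes, 13 passed the filter, 3 of which (Bhlhe23, Lhx4 and Nrl) would not have passed without the Day 15 +Fgf libraries and had to be high there to be tested. Of the other 10, 9 rose and 1 fell between Day 12 and Day 15 in +Fgf, where 27.2% of all genes tested rose, the days in which Otx2 was 0.30 higher. The gene that fell was Trpm1, which is also on the pigment list. At Day 15, 4 of the 13 (also Gnat2) would not have passed without 1 of the groups compared. Of the other 9, 8 were higher and 1 lower in +Fgf than in +Wnt (38.0% of all genes tested were higher), where Otx2 was 2.07-fold higher in +Wnt. This direction was not yet seen at Day 12, where 2 of the 13 were higher and 6 lower in +Fgf than in +Wnt (median log2 fold change -0.25). Of all genes tested, 26.3% were higher and 25.2% lower in that comparison. Crx, a close relative of the Otx factors and a gene that Otx2 is known to activate in photoreceptor precursors, was 116.4, 97.7 and 93.9 CPM in Day 15 +Fgf and 2.54, 2.31 and 2.74 CPM in Day 15 +Wnt (log2 fold change 5.18, SE 0.24, limma adjusted p = 1.17e-11). Isl1, a LIM-homeobox gene of bipolar and other retinal neurons, was at 116.9, 111.2 and 98.3 CPM against 1.06, 0.597 and 0.281 CPM (log2 fold change 6.93, limma adjusted p = 4.57e-12). Pou4f2, which the study used to mark retinal ganglion cells, was higher in Day 15 +Fgf too (5.61 on the log2 scale, limma adjusted p = 1.22e-10). Which cells held the Isl1 reads was not tested. GGATTA was found in 7 of the 19 genes matched to promoters (36.8%), against 8.14% of all genes, and the promoter of Crx holds it at 2 places.

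Crx promoter, chr7:15879906-15880205, minus strand, GGATTA in capitals, starting 94 and 21 bases before the start site: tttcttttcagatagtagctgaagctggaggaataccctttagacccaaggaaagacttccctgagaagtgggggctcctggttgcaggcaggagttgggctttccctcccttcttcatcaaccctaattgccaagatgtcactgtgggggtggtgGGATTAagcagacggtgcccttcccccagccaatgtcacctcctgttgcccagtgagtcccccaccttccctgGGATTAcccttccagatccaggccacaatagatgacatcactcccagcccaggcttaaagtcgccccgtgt

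Other regulators of the same choice differed in both directions. Of 19 fate-switch regulators, 9 were higher and 7 lower in +Fgf than in +Wnt at Day 12, and 11 were higher and 8 lower at Day 15 (medians 0.15 and 0.41). The shares over all genes tested were 26.3% higher and 25.2% lower at Day 12, and 38.0% higher and 30.6% lower at Day 15. The Wnt feedback gene Axin2 was 10.5, 13.1 and 23.7 CPM in Day 15 +Fgf and 183.2, 182.3 and 164.1 CPM in Day 15 +Wnt (log2 fold change -3.54, SE 0.23, limma adjusted p = 6.17e-10). Bmp7, a signal that promotes RPE fate, was 8.85, 12.3 and 15.7 CPM against 96.3, 82.5 and 82.3 CPM (log2 fold change -2.83, limma adjusted p = 5.97e-10).

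**Figure D5:**
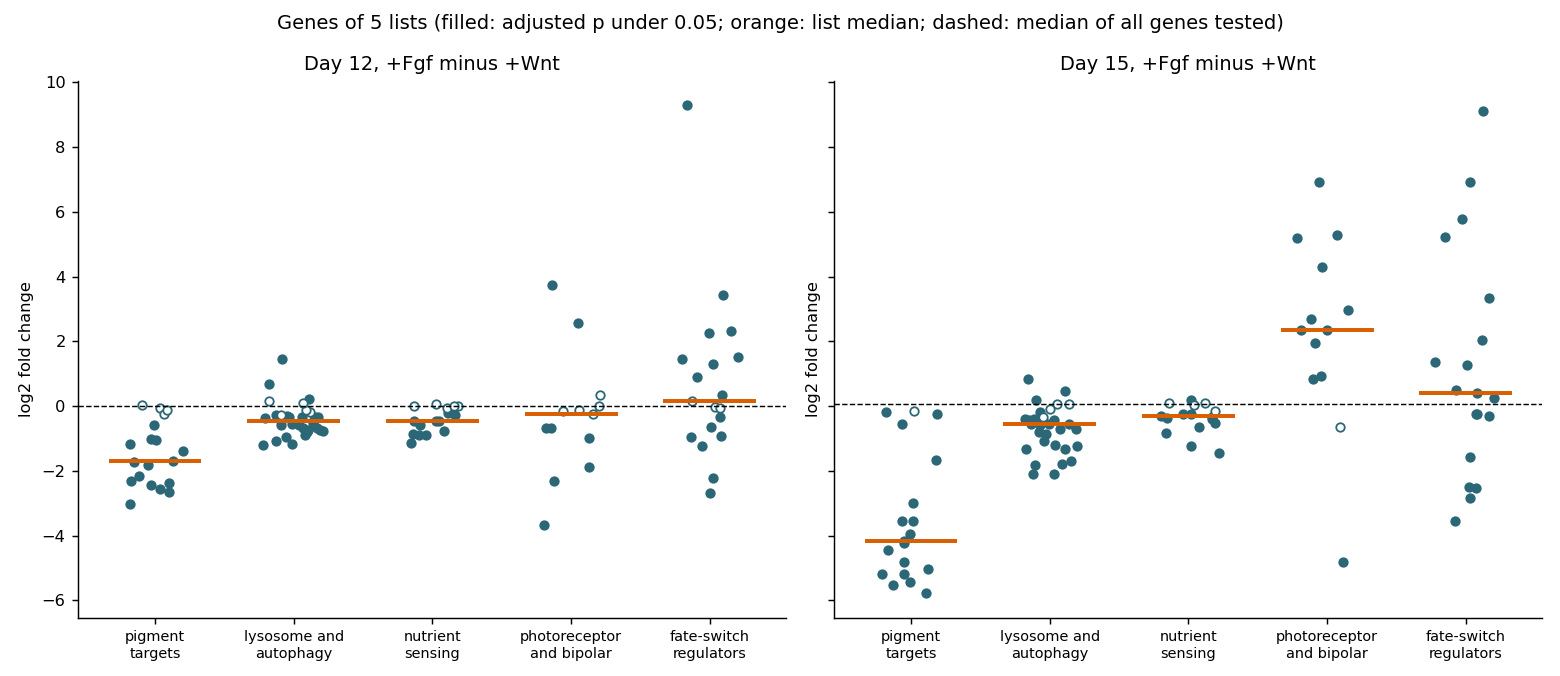
Log2 fold change (+Fgf minus +Wnt) of the tested genes of 5 lists at Day 12 (left) and Day 15 (right). Each point is a gene (filled where the adjusted p in limma was under 0.05), orange lines are list medians and the dashed line is the median of all genes tested. The pigment targets go from a median of -1.68 to -4.18. Of the 13 photoreceptor and bipolar genes, 4 would not have passed the filter without 1 of the Day 15 groups, so the Day 15 median of these genes does not describe the list.

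Genes with the most similar course were sought for each factor among 11040 genes with at least 10 CPM in their highest group, by Pearson's r of log2 values over the 15 libraries, which share the group structure, so that r is given as a description. Closest to Mitf were Angptl2 (r = 0.99, with means of 24.7 and 86.3 CPM in Day 15 +Fgf and +Wnt), Kank1 (0.99) and Anpep (0.99). Closest to Otx2 were Aldh9a1 (0.99, with means of 52.8 and 103.2 CPM in Day 12 +Fgf and +Wnt), Usp2 (0.97) and Tenm2 (0.97). Closest to Otx1 were Car13 (0.99), Cdv3 (0.98) and Rab11fip1 (0.98), and closest to Tfec were Atp5b (0.98), Gyltl1b (0.98) and Ndufs1 (0.97). For Tfeb the highest value was that of Ap2a1 (0.89), and for Tfe3 that of Myo1e (0.86).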

How the data were processed

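RNA-Seq was made from 15 libraries, 3 of each of 5 groups taken from the GEO labels. Per the submitters' processing notes and the study's methods, the authors used bcl2fastq 1.8.4, FastQC 0.10.1, TopHat2 2.0.8b, Cufflinks 2.1.1 with Cuffdiff and edgeR 3.2.4 on mm10. The deposited values are normalized CPM values, treated here as a normalized signal, since the column totals ran from 936418 to 1075448. All values (100%, tolerance 0.02 read) were whole multiples of 1 read, which gave the reads per library. The strand setting of the counting is not given in the sources used here.

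Genes with at least 1 CPM in 3 libraries (13845 of 23244 entries) were fitted as log2(value + 0.3) with limma 3.58.1 (R 4.3.3), 5 group means and a trended variance, with Benjamini-Hochberg adjustment of the p-values and a threshold of 0.05. Fold changes are on that log2 scale, which understates the change of low genes. Single values were tested with an exact two-sided permutation test (SciPy 1.17.1). The fit was also run on simulated reads with the same spread for every gene and few changed genes. These data differ from that setting, so the run does not bear on the results here. Replicates correlated with r of 0.988 to 0.995 and differed beyond sampling noise. Counting intervals and floors cover counting error only. Samples with the same replicate number did not deviate together (r from -0.25 to 0.21, above 0.1 in 4 of 18 pairs), so no block was used.

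The 7 genes, 5 pathway lists and 6 marker lists (153 genes, 151 in the table) were chosen with earlier results of these data known. By rule, named genes come from the 7 genes, up to 2 genes of each list with the largest rise and 2 with the largest fall between Day 15 +Fgf and +Wnt (at least 10 CPM in the higher group), the 3 genes most like each member, genes whose exons overlap a member, and markers at 0 in all libraries. Tyr, Tyrp1, Crx, Bhlhe23, Lhx4, Nrl, Gnat2, Grm6, Rcvrn, Nr2e3, Opn1sw, Scgn, Cabp5, Pou4f2, Rpe65, Best1, Sox10 and the macrophage markers besides Csf1r fall outside that rule and were named after their values were seen, as were the promoters of Dct, Best1 and Mcoln1. Some genes that the rule selects are not reported here. Alternatives covered the pseudocount, the filter, median-of-ratios scaling and quantile normalization, untrended moderation, a RIN covariate, only the 6 samples compared, the replicate block, each library left out, and edgeR 4.0.16 on the recovered reads. The fold of Vsx1 over the floor with a library left out, and list counts without genes that needed 1 group to pass the filter, were added after seeing the data.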

Additional observations from a re-analysis of the deposited data

Results flagged for a closer look

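For 3 of the 6 genes tested, the change from Day 12 to Day 15 differed between the stimulations by the interaction term (+Fgf minus +Wnt, log2 scale), where 47.9% of all genes tested were called. The difference was -2.10 for Mitf (limma adjusted p = 3.88e-10), which had a log2 fold change of -1.62 in +Fgf and 0.47 in +Wnt. It was -0.94 for Otx1 (limma adjusted p = 5.7e-05), which was lower at Day 15 than at Day 12 in both, by -1.50 and -0.56. It was 0.43 for Otx2 (limma adjusted p = 0.0112, up to 0.0499 over 25 alternatives), with 0.30 in +Fgf and -0.13 in +Wnt, of which the latter did not pass.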

How the results depend on the processing

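Of 1079 values of the 6 genes under alternative settings, 1040 kept their direction and their side of the threshold, 13 lost a call, 11 gained one and 15 changed direction. The changes of direction lay in values that had not passed. For Tfeb in Day 12 +Fgf against Day 10 (0.01), the value was -0.15 after quantile normalization, -0.0037 with median-of-ratios scaling, -0.014 with RIN as a covariate, -0.0060 with edgeR and -0.057 to 0.10 with 1 library left out. For Day 12 +Wnt against Day 10, Tfec was 0.049 with RIN and Tfeb -0.078 after quantile normalization. For Day 15 against Day 12 +Wnt, quantile normalization gave 0.037 for Otx2 and -0.43 for Tfeb (limma adjusted p = 0.012), edgeR gave 0.011 for Tfe3, and leaving out 1 library gave -0.13 to 0.094 for Tfeb and -0.085 to 0.0023 for Tfe3. The number of the 6 genes called between Day 12 +Wnt and Day 10 was 1, and it was 2 after quantile normalization, 0 with RIN, 2 with only the 6 samples and 1 to 2 with 1 library left out, the 2 without Day 15 +Fgf replicate 3. With RIN, which was lower in all Day 15 +Fgf libraries than in all Day 12 +Fgf and Day 15 +Wnt libraries, as a covariate, 3591 genes were called between Day 15 and Day 12 +Fgf in place of 7899, and 3842 in the interaction in place of 6636. Against Day 10, where RIN was lower than in all Day 12 libraries, 5608 genes were called in Day 12 +Fgf in place of 7716. In Day 12 +Wnt 6941 were called in place of 8330. The number of the 6 genes called between Day 12 +Fgf and Day 10 stayed at 4 under all alternatives. With the longest transcript, Otx2 held 80.5%, 79.8%, 82.2%, 93.3% and 86.1% of the Otx sum at Day 10, at Day 12 with +Fgf and +Wnt and at Day 15 with +Fgf and +Wnt, and Mitf 61.2%, 46.6%, 62.9%, 25.7% and 74.4% of the MiT sum. The cause of these differences was not tested. With the replicate block, none of 42 values of the 6 genes changed its call or direction, and 9486 genes were called between Day 15 +Fgf and +Wnt in place of 9505. As a hint from the data alone, a library correlated best with its own number in 5 of 18 pairs. Alternatives for list counts were run for the 5 pathway lists between +Fgf and +Wnt at both days, and, added after seeing the data, for the pigment targets between Day 12 and Day 15 in +Wnt, the photoreceptor and bipolar genes between these days in +Fgf, and with each library left out. These counts moved by less than 1.5 times. The other list counts had no alternative run. Depth limits Vsx1 and, in Day 15 +Fgf, Tfec.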

Other observations

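Marker genes of other cell types were also compared between Day 15 +Fgf and Day 15 +Wnt, since Otx1, Otx2 and Mitf are not restricted to the eye. In this comparison, 30.6% of all genes tested were lower and 38.0% higher in +Fgf. Of 9 forebrain and midbrain markers that passed the filter without need of any single group compared, 6 were lower and 1 higher in +Fgf, and Emx2, a regulator of the dorsal forebrain, was 0.811, 8.52 and 19.5 CPM against 129.9, 143.1 and 110.6 CPM. Of 8 choroid plexus markers tested, 1 would not have passed the filter without Day 15 +Wnt and the other 7 were lower in +Fgf, among them the transporter gene Slc4a5 at 34.2, 33.4 and 27.2 CPM against 362.9, 305.2 and 360.6 CPM. Of 7 such neural crest and melanocyte markers, 2 were lower and 1 higher, and the receptor gene Kit was 35.7, 40.7 and 34.3 CPM against 61.9, 79.7 and 60.1 CPM, while Ednrb was 30.5, 33.1 and 35.8 CPM against 15.7, 17.9 and 16.1 CPM. Day 12 +Fgf replicate 3, the library with the lowest Otx2 value of its group, also had the lowest Emx2 value of its group (10.9 CPM, against 32.5 and 29.9 CPM). The part of these cells in the values of the 7 genes was not tested.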
